A study of Mus musculus with 15 samples.

Results

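Serpins are protease inhibitors that work as baits: the target protease cuts an exposed loop of the serpin, the serpin changes shape and the protease is trapped and inactivated. Most clade B serpins lack a classical secretion signal and stay inside the cell, where they protect leukocytes from granule and lysosomal proteases that they make or meet. Dendritic cells (DCs), which carry antigen from tissue to lymph node (LN) and prime T cells, and monocytes, which circulate from bone marrow, use this machinery in contact with protease-rich neighbors. The 8 genes described here are Serpinb1a, Serpinb2, Serpinb6a, Serpinb6b, Serpinb8, Serpinb9, Serpinb9b and Serpina3g, taken by symbol and matched to their Ensembl identifiers, out of 38924 gene identifiers and 68 genes with a Serpin symbol in the count table. Serpinb2 and Serpinb6b were among them because their levels in these libraries were restricted to some subtypes, so their values are given as a description and carry no test.

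The study profiled RNA from sorted mononuclear phagocytes (MPs) of naive female C57BL/6 mice, 6 to 8 weeks old by the labels, in 5 subtypes with 3 libraries each. From the spleen came CD8+ DCs and CD4+ DCs, both CD11c+ and MHCII+, and Ly6C+ monocytes, which were Ly6C+ and CD11b+. From the lung-draining LN came CD103+ DCs and CD11b+ DCs, both CD11c+ and gated for high MHCII. Splenic CD8+ and LN CD103+ DCs represent the DC1 lineage and splenic CD4+ and LN CD11b+ DCs the DC2 lineage. None of the mice was treated or genetically altered. Each library held cells pooled from 5 mice, and LN and spleen came from different cohorts, so organ, cohort and gate cannot be told apart. Sorting was preceded by magnetic enrichment for CD11c in the case of DCs and for CD11b in the case of monocytes, which cannot be told apart from the subtype either. Nothing in the sources used here says that libraries of one subtype were prepared as separate experiments, and the p-values measure only the spread between these pooled libraries.

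The libraries held 4531243 to 10233914 reads counted on genes and detected 15222 to 17693 genes. Levels of one gene across subtypes are given below as CPM, counts scaled to a common library total after TMM normalization, and levels of different genes are compared only in TPM, in which counts are divided by transcript length and scaled to the same total in each library. Lineage genes followed the labels in part. Xcr1 was at 516 to 920.3 CPM in splenic CD8+ DCs and at 34.1 to 96.8 CPM in LN CD103+ DCs against at most 7.73 CPM elsewhere. Ccr7 was at 2168 to 4518 CPM in LN DCs against at most 228 CPM elsewhere, and Ly6c2 was at 707 to 1017 CPM in monocytes against at most 17.2 CPM elsewhere. The DC2 gene Sirpa was at 973 to 1888 CPM in splenic CD4+ and 596 to 629 CPM in LN CD11b+ DCs. It was at most 118 CPM in DC1 subtypes but 1199 to 1379 CPM in monocytes. Batf3 overlapped between the LN subtypes (79.5 to 91.8 CPM in CD103+, 65.9 to 85.3 CPM in CD11b+). Irf8 was at 452 to 563 CPM in monocytes and 534 to 765 CPM in LN CD103+ DCs. Cd209a overlapped between splenic CD8+ (42.0 to 100 CPM) and LN CD11b+ DCs (30.5 to 68.5 CPM). Itgae, which encodes the CD103 chain used for the LN sort, was at 20.8 to 39.6 CPM in LN CD103+ DCs and higher, at 71.8 to 135 CPM, in splenic CD8+ DCs. All 5 T cell markers had counts in LN DCs, with a summed level of 80.2 to 114 CPM in CD103+ and 55.6 to 83.8 CPM in CD11b+ DCs, against at most 5.50 CPM in splenic DCs and 0.583 CPM in monocytes. The 5 B cell markers summed to 15.3 to 218 CPM in LN CD103+ DCs, the highest value being replicate 1. The 5 macrophage markers summed to 523 to 772 CPM in LN CD11b+ and 445 to 521 CPM in splenic CD4+ DCs, with C1qb at 134 to 280.4 against 44.8 to 98.2 CPM, and at most 224 CPM elsewhere. Ccr2, listed for monocytes, was at 102 to 157 CPM in LN CD11b+ and 13.6 to 19.8 CPM in splenic CD4+ DCs. The 4 plasmacytoid DC markers summed to 66.6 to 88.6 CPM in splenic CD8+ DCs against at most 19.9 CPM elsewhere. There Ccr9 was at 50.6 to 74.6 CPM, Siglech at 35.5, 13.5 and 3.89 CPM in replicates 1, 2 and 3, and Klk1 and Cox6a2 at most 0.405 CPM. The part of these cells in the LN and splenic levels given below was not tested, and in bulk RNA fewer cells of a type and less RNA per cell cannot be told apart. Replicate 3 of both splenic DC subtypes stood apart for several of the 8 genes, and results that rest on it are given with and without it. LN CD11b+ replicate 3, the library with the fewest counted reads, stood apart for Serpinb9, at 489 CPM against 263 and 271 CPM.

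Serpinb6b, Serpinb9 and Serpinb9b lie side by side on mouse chromosome 13 of GRCm38 with no other gene of the count table between them. Serpinb6b (ENSMUSG00000042842) occupies chr13:32965209-32979067, Serpinb9 (ENSMUSG00000045827) chr13:33003250-33017957 and Serpinb9b (ENSMUSG00000021403) chr13:33027416-33041884, all on the plus strand within 76.7 kb. Because all 3 were highest in LN DCs, the bases just upstream of their RefSeq starts are shown so that the reader can compare them. They are from RefSeq on GRCm38.p6, plus strand, at chr13:32965011-32965208 for Serpinb6b (cut where the counted first exon begins), chr13:33004291-33004540 for Serpinb9 (between the first exon of the longer annotated transcript and the next one) and chr13:33027164-33027413 for Serpinb9b. Capitals mark a match to the interferon regulatory factor (IRF) motif.
Serpinb6b: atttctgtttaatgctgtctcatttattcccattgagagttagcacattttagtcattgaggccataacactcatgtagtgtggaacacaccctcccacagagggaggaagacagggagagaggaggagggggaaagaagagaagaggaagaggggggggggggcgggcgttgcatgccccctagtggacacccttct
Serpinb9: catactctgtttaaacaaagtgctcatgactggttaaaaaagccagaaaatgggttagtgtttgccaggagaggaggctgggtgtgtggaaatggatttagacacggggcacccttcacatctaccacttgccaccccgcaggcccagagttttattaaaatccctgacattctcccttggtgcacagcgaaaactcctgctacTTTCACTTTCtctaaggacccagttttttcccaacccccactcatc
Serpinb9b: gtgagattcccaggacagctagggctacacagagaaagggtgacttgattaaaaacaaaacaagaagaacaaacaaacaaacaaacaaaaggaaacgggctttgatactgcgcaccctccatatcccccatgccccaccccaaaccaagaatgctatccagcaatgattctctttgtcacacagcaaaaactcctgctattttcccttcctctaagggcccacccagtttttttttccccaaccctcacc

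Serpinb9 and Serpinb9b shared 154 of 225 aligned bases (68.4%) in these windows, whereas Serpinb6b shared 72 of 138 aligned bases (52.2%) with Serpinb9 and 63 of 104 (60.6%) with Serpinb9b. Motifs of 4 factor families were searched on both strands of all 32851 RefSeq upstream windows of 250 bases. They were IRF (GAAA, any 2 bases, GAAA; present in 2.98% of windows), STAT (TTCNNNGAA, 7.02%), NF-kB (GGGA, any 1 base, TTTCC, 0.356%) and PU.1 (GAGGAAGT, 2.44%). The Serpinb9 window held 1 IRF match, written TTTCACTTTC on the plus strand, and the Serpinb6b and Serpinb9b windows held none of the 4. Of the other genes with a RefSeq window, Serpina3g held a STAT match, Serpinb6a an IRF and a STAT match at one of its 2 starts and none at the other, Serpinb2 a STAT match at one of its starts, which lies inside the counted Serpinb2 gene, and Serpinb8 none. A match describes letters only and was not tested as a binding site.

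Serpinb9, the inhibitor of granzyme B that shields cytotoxic and antigen-presenting cells from that protease, was expressed most in LN DCs. In LN CD103+ DCs it was at 541, 655 and 764 CPM in replicates 1, 2 and 3 (values are given in this order throughout), and the LN CD11b+ libraries held 263, 271 and 489 CPM. Splenic CD8+ DCs held 50.6, 55.3 and 157 CPM and splenic CD4+ DCs 9.80, 9.38 and 32.3 CPM. Monocytes were lowest, with 1.97, 3.40 and 4.47 CPM. The 5 subtypes did not overlap with each other, in the order LN CD103+, LN CD11b+, splenic CD8+, splenic CD4+ and monocytes, and replicate 3 was the highest library of each subtype. LN CD103+ DCs exceeded splenic CD8+ DCs by 2.90 ± 0.46 on the log2 scale (edgeR estimate ± SE throughout; adjusted p = 4.63e-05), and LN CD11b+ DCs exceeded splenic CD4+ DCs by 4.32 ± 0.50 (adjusted p = 2.49e-06). Splenic CD8+ exceeded splenic CD4+ DCs by 2.36 ± 0.47 (adjusted p = 0.00100) and monocytes minus splenic CD4+ DCs was −2.33 ± 0.53 (adjusted p = 0.00153). The step between the 2 LN subtypes, 0.94 ± 0.43, did not pass the test (adjusted p = 0.177), but with the replicate numbers as a block it was 1.02 and passed (adjusted p = 0.00475). It also passed without replicate 3 of both splenic DC subtypes (0.94, adjusted p = 0.0124). Replicate 3 was 2.96 times the mean of the other splenic CD8+ libraries and 3.37 times that of the other splenic CD4+ libraries. Without both of these libraries, an omission chosen after seeing the data, the LN difference was 3.62 in DC1 and 5.15 in DC2 and the splenic difference 2.46, and all 3 passed. Without only the CD8+ one the splenic difference was 1.63, and without only the CD4+ one it was 3.19. Splenic CD4+ replicate 3 also carried part of the step from monocytes, which was −1.50 for monocytes minus splenic CD4+ DCs without it (adjusted p = 0.0174), and monocytes minus splenic CD8+ DCs went from −4.69 to −3.97 without CD8+ replicate 3. Over all settings, the omission of LN CD11b+ replicate 3 among them, the LN difference in DC2 was 3.97 to 5.15. The step between the LN subtypes was 0.78 to 1.29 over the same settings.

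Serpinb9b, a mouse paralog of Serpinb9 that inhibits granzyme M, was detected in LN DCs and almost nowhere else. LN CD103+ DCs held 8.23, 12.6 and 8.45 CPM, and LN CD11b+ DCs 11.4, 11.6 and 13.04 CPM. A single count was found in the 3 splenic CD8+ libraries, in replicate 3, and none in the splenic CD4+ DC and monocyte libraries. The LN libraries of both lineages overlapped (difference of CD103+ minus CD11b+ −0.29 ± 0.41, adjusted p = 0.726) and stood above every splenic library. Against the floor of 3 counts over a group, LN CD11b+ DCs were at least 78.6-fold higher than splenic CD4+ DCs and at least 92.0-fold higher than monocytes. Against the 1 count in splenic CD8+ DCs, LN CD103+ DCs were 240-fold higher, with an exact 95% counting interval of 43.6 to 9749, which covers counting error only. No p is given for these differences, since the gene passed the filter on low counts only through the LN groups. Per transcript length Serpinb9b stayed far below its neighbor, with a mean of 6.76 TPM in LN CD103+ DCs against 423 TPM for Serpinb9.

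Serpinb6b, a paralog of Serpinb6a that inhibits mouse granzyme A, was restricted to DCs. It was at 742, 797 and 792 CPM in the LN CD103+ libraries and at 278, 357 and 373 CPM in the LN CD11b+ libraries. In spleen it was at 116, 73.0 and 183 CPM in CD8+ and at 6.57, 10.9 and 16.98 CPM in CD4+ DCs. No read was counted in the 3 monocyte libraries, which allows a level of up to 0.131 CPM over the group. The subtypes did not overlap, and their order was that of Serpinb9. Against the floor of 3 counts over the monocyte group, mean levels were at least 5952-fold higher in LN CD103+ DCs, at least 2572-fold in LN CD11b+, at least 950.3-fold in splenic CD8+ and at least 88.0-fold in splenic CD4+ DCs. Within each organ the DC1 subtype was higher, by a ratio of means of 10.8 in spleen and 2.31 in LN. Replicate 3 was again high, at 1.94 times the mean of the other libraries in both splenic DC subtypes.

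**Figure D1:**
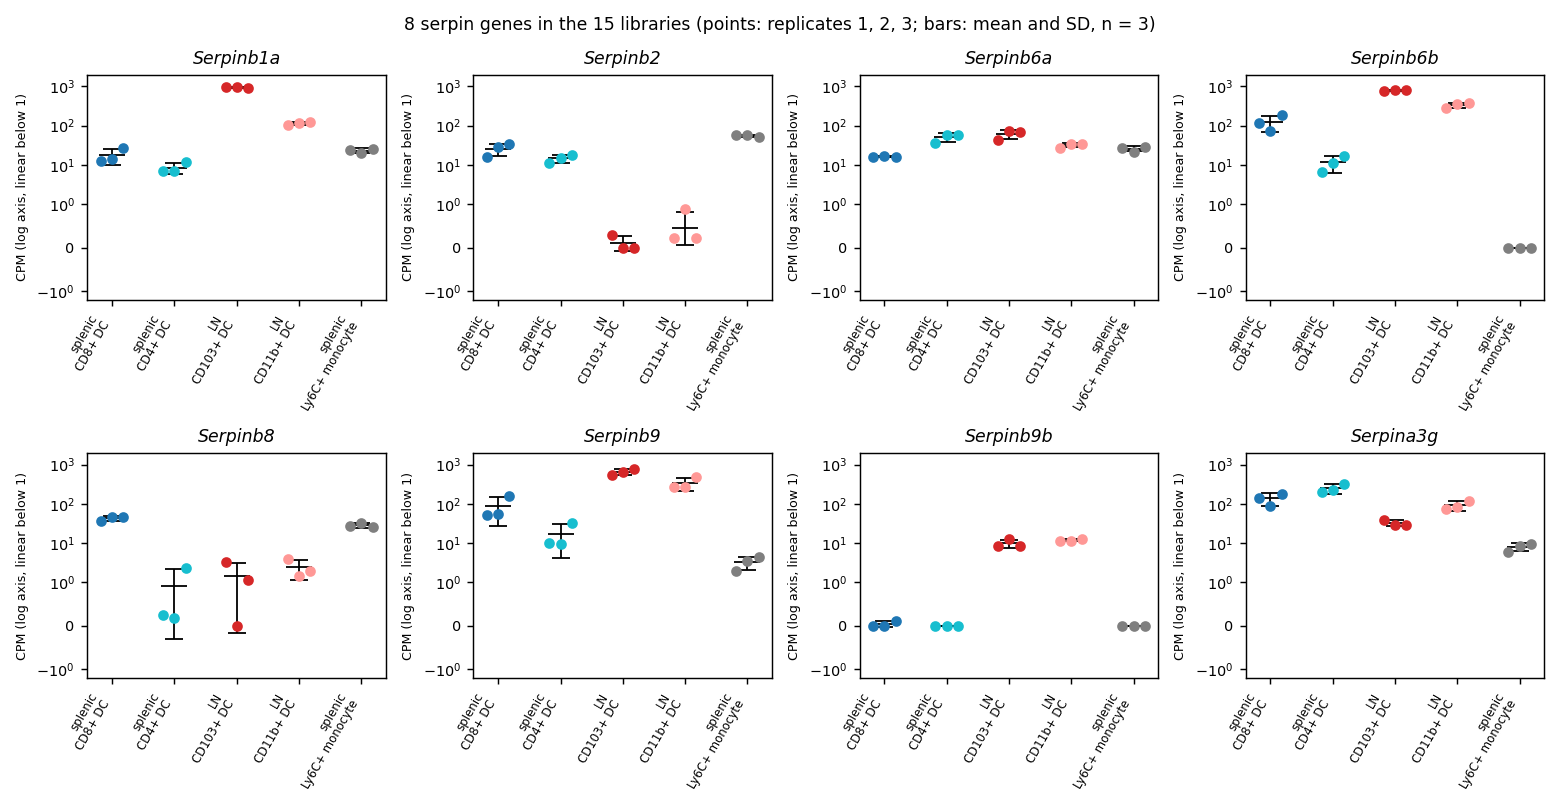
Level in CPM (log axis that turns linear below 1) of the 8 serpin genes in the 15 libraries, by sorted subtype; points are replicates 1 to 3 and bars the mean and SD (n = 3). Serpinb9, Serpinb6b and Serpinb9b were highest in both LN DC subtypes, Serpinb1a reached 903 to 950.3 CPM in LN CD103+ DCs, and Serpinb2 was near 0 in LN DCs.

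Serpinb1a is the mouse counterpart of the inhibitor of neutrophil elastase, cathepsin G and proteinase 3, and it was the most abundant serpin of LN CD103+ DCs. The LN CD103+ libraries held 939.6, 950.3 and 903 CPM, and the LN CD11b+ libraries 103, 113 and 124 CPM. Monocytes held 23.6, 19.5 and 25.8 CPM, splenic CD8+ DCs 12.2, 13.9 and 26.2 CPM and splenic CD4+ DCs 6.83, 6.99 and 11.5 CPM. Both LN subtypes stood clear of the 9 splenic libraries and of each other. LN CD103+ exceeded LN CD11b+ DCs by 3.04 ± 0.26 on the log2 scale (adjusted p = 2.84e-07), a ratio of means of 8.22, and exceeded splenic CD8+ DCs by 5.73 ± 0.30 (adjusted p = 1.29e-10), a ratio of 53.4. LN CD11b+ exceeded splenic CD4+ DCs by 3.75 ± 0.28 (adjusted p = 1.62e-08). The CD8+ minus CD4+ difference in spleen was 1.06 ± 0.27 (adjusted p = 0.00737). It did not pass without splenic CD8+ replicate 3 (0.64, adjusted p = 0.0754) or when only those subtypes were fitted (adjusted p = 0.0765), and it passed without replicate 3 of both (0.92, adjusted p = 0.0103). Monocytes and splenic CD8+ DCs overlapped (0.39 ± 0.26, adjusted p = 0.238), and without splenic CD8+ replicate 3 the monocytes were higher by 0.81 (adjusted p = 0.0106). At 1082 ± 10.1 TPM (SD, n = 3) Serpinb1a ranked 117 among the 14456 tested genes by mean TPM in LN CD103+ DCs, against 7607 in splenic CD4+ DCs.

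Serpinb6a, the mouse counterpart of the cathepsin G inhibitor SERPINB6, varied least. It was at 42.4, 70.7 and 68.9 CPM in LN CD103+ DCs and at 34.9, 58.8 and 58.6 CPM in splenic CD4+ DCs. LN CD11b+ DCs held 27.5, 33.6 and 34.7 CPM, monocytes 27.3, 21.5 and 28.7 CPM and splenic CD8+ DCs 15.9, 16.9 and 15.7 CPM. Every library lay between 15.7 and 70.7 CPM, splenic CD8+ DCs were below all others, and LN CD103+ overlapped with splenic CD4+ DCs (0.26 ± 0.24, adjusted p = 0.394) as LN CD11b+ DCs did with monocytes (monocytes minus LN CD11b+ −0.31 ± 0.24, adjusted p = 0.315). In spleen the DC1 subtype was the lower one (CD8+ minus CD4+ −1.65 ± 0.25, adjusted p = 6.91e-05), whereas in LN the DC1 subtype was the higher one (CD103+ minus CD11b+ 0.93 ± 0.24, adjusted p = 0.0145). The LN step was lost without LN CD103+ replicate 2 (adjusted p = 0.0795), LN CD103+ replicate 3 (0.0645) or LN CD11b+ replicate 1 (0.0696). The excess of monocytes over splenic CD8+ DCs, 0.67 ± 0.25 (adjusted p = 0.0347), was lost in 5 of the single-library omissions, those of each splenic CD8+ library and of monocyte replicates 1 and 3 (adjusted p 0.0757 to 0.115). Exons of Serpinb6a overlapped those of Nqo2 over 14.1%, 1110046J04Rik over 10.8% and Ripk1 over 4.46% of their length, all on the other strand, and reads were counted without strand. Nqo2 was lowest in LN CD103+ DCs, at 8.65 to 16.4 CPM, and highest in monocytes, at 47.4 to 62.8 CPM, an order unlike that of Serpinb6a. Ripk1 came close to the order of Serpinb6a at a higher level, with means of 183 CPM in splenic CD4+, 174 CPM in LN CD103+ and 158 CPM in LN CD11b+ DCs, 154 CPM in monocytes and 139 CPM in splenic CD8+ DCs. The highest level of 1110046J04Rik was 1.82 CPM, in LN CD103+ DCs. The part of these genes in the Serpinb6a counts was not tested.

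Serpinb2, also called plasminogen activator inhibitor type 2, is induced in monocytes and blocks urokinase and tissue plasminogen activator. It was found in all splenic subtypes and near the detection limit in LN DCs. Monocytes held 57.6, 56.5 and 49.99 CPM, splenic CD8+ DCs 15.8, 27.7 and 33.3 CPM and splenic CD4+ DCs 10.96, 15.2 and 17.3 CPM. In LN it had 2 counts in the 3 CD103+ libraries together and 9 counts in the CD11b+ libraries, and its highest LN level was 0.880 CPM. Monocytes did not overlap with any DC subtype, the splenic DC subtypes overlapped with each other, and all splenic libraries stood above all LN libraries. Against LN CD103+ DCs the monocyte level was 595-fold (exact 95% counting interval 164 to 4906) and against LN CD11b+ DCs 125-fold (65.7 to 274). Serpinb2 shares 291 exonic bases, 12.4% of its length, with its neighbor Serpinb10, the myeloid serpin bomapin, on the same strand. Serpinb10 had the same order, at 247 to 287 CPM in monocytes, 47.3 to 78.3 in splenic CD8+, 28.4 to 37.0 in splenic CD4+, at most 2.90 in LN CD11b+ and at most 0.828 CPM in LN CD103+ DCs. The part of the shared bases in the Serpinb2 counts was not tested.

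Serpinb8, an inhibitor of the proprotein convertase furin, was shared by splenic CD8+ DCs and monocytes. It was at 36.6, 46.1 and 46.0 CPM in splenic CD8+ DCs and at 26.9, 32.4 and 25.7 CPM in monocytes. The LN CD11b+ libraries held 3.87, 1.47 and 1.99 CPM, the LN CD103+ libraries 3.21, 0 and 1.16 CPM and the splenic CD4+ libraries 0.258, 0.170 and 2.33 CPM. Splenic CD8+ DC libraries did not overlap with the monocyte libraries, but the difference of monocytes minus CD8+ DCs, −0.60 ± 0.53, did not pass the test (adjusted p = 0.387) except when only those subtypes were fitted (adjusted p = 0.0144). The other 3 subtypes overlapped, all at or below 3.87 CPM. Splenic CD8+ exceeded splenic CD4+ DCs by 5.58 ± 0.73 (adjusted p = 1.41e-05), and by 7.5 without splenic CD4+ replicate 3 (adjusted p = 6.21e-06). LN CD103+ DCs were below splenic CD8+ DCs by −4.91 ± 0.68 (adjusted p = 9.29e-06), with −6.37 without LN CD103+ replicate 1 and −4.25 without replicate 2. In DC2 the LN minus spleen difference was 1.51 ± 0.81 (adjusted p = 0.167) and 3.44 without splenic CD4+ replicate 3, where it passed (adjusted p = 0.0155).

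Serpina3g, a clade A serpin that stays inside the cell and inhibits lysosomal cysteine proteases such as cathepsin B, was highest in splenic DCs and lower in LN DCs. In spleen it was at 201, 222 and 328 CPM in CD4+ DCs and at 143, 86.2 and 182 CPM in CD8+ DCs. In LN it was at 74.4, 81.7 and 121 CPM in CD11b+ DCs and at 38.7, 29.0 and 29.7 CPM in CD103+ DCs. Monocytes held 5.90, 8.65 and 9.34 CPM. Splenic CD8+ and LN CD11b+ DCs overlapped (LN minus spleen −0.57 ± 0.27, adjusted p = 0.101) and the other neighbors in this order did not. That difference passed without splenic CD8+ replicate 2 (adjusted p = 0.0275) or LN CD11b+ replicate 3 (adjusted p = 0.0372). It was lower in LN than in spleen in both lineages, by −2.08 ± 0.28 in DC1 (adjusted p = 7.73e-06) and by −1.44 ± 0.27 in DC2 (adjusted p = 4.57e-04), and lower in DC1 than DC2 in LN (−1.50 ± 0.28, adjusted p = 0.00108). The lower level in DC1 than DC2 of the spleen (−0.87 ± 0.27, adjusted p = 0.0223) was lost without splenic CD8+ replicate 2 (adjusted p = 0.0902), without splenic CD4+ replicate 3 (adjusted p = 0.101) and when only those subtypes were fitted (adjusted p = 0.0667). Monocytes were lower than every DC subtype, by −4.95 ± 0.33 against splenic CD4+ DCs (adjusted p = 1.03e-09). Serpina3g shared 29.4% of its stretches of 30 bases with transcripts of other genes, 16.95% with Serpina3f, but 3.49% of those of 100 bases.

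The 8 genes made up most of the serpin transcripts in DCs but not in monocytes. Summed over all 68 Serpin genes, LN CD103+ DCs held 2402 ± 103 TPM (SD, n = 3), LN CD11b+ DCs 907 ± 220.4, splenic CD8+ DCs 522 ± 172, splenic CD4+ DCs 444 ± 152 and monocytes 344 ± 19.4 TPM. The make-up of the sum differed by subtype. In LN CD103+ DCs Serpinb1a was 45.1%, Serpinb6b 33.2% and Serpinb9 17.5% of it. In LN CD11b+ DCs Serpinb6b led with 40.9%, followed by Serpinb9 with 25.4%, Serpinb1a with 15.7% and Serpina3g with 11.6%. In splenic CD8+ DCs Serpina3g (29.96%) and Serpinb6b (25.4%) led, whereas in splenic CD4+ DCs Serpina3g alone was 67.2%. In monocytes the 60 other Serpin genes were 59.9%, against 16.5% or less in each DC subtype, and Serpinb2 was 17.4%. The 3 LN CD103+ libraries had the highest sums, and the splenic DC replicates 3 the highest of their subtypes.

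**Figure D2:**
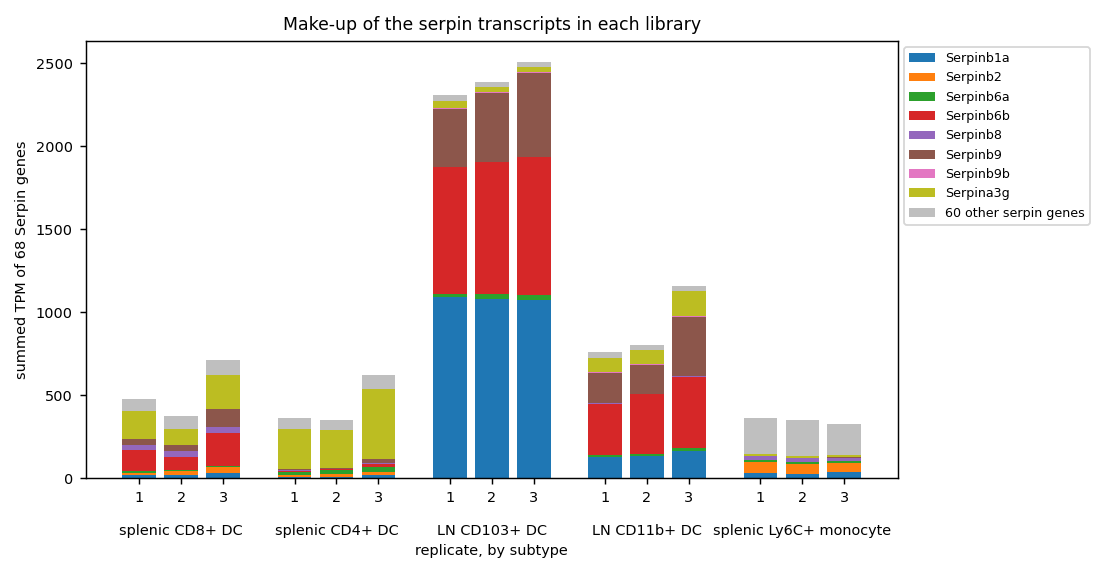
Summed level in TPM of the 68 Serpin genes in each of the 15 libraries, stacked by gene and grouped by subtype, with replicate numbers below the bars. LN CD103+ DCs held 2307 to 2511 TPM, of which Serpinb1a, Serpinb6b and Serpinb9 made up most, while Serpina3g led in splenic CD4+ DCs and the 60 other Serpin genes, mostly Serpinb10, in monocytes.

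Counts over the tested genes are given for 5 of the 8, without Serpinb2 and Serpinb6b and without Serpinb9b, which passed the filter on low counts only through the LN groups where it is high and so had to differ from the other groups. All 5 differed over the subtypes, as did 73.5% of the 14456 genes tested. Between LN and spleen within DC1, 5 of 5 were called against 45.6% of all genes, with 3 higher in LN CD103+ DCs (23.8% of all genes) and 2 lower (21.8%). Within DC2, 4 of 5 were called against 33.1% of all genes, with 2 higher in LN CD11b+ DCs (19.3%) and 2 lower (13.8%). Between the splenic lineages 5 of 5 were called against 27.4% of all genes, with 3 higher in CD8+ DCs (13.1%) and 2 lower (14.4%). Between the LN lineages 3 of 5 were called against 12.9% of all genes, with 2 higher in CD103+ DCs (5.22%) and 1 lower (7.73%). Monocytes differed from splenic CD8+ DCs in 3 of 5 genes (42.1% of all genes), from splenic CD4+ DCs in 5 of 5 (48.0%), from LN CD103+ DCs in 5 of 5 (53.2%) and from LN CD11b+ DCs in 4 of 5 (47.8%). The counts stand beside the background as a description, without a test of the list.

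The LN minus spleen difference was compared between the 2 lineages in one fit. It was larger in DC1 than in DC2 for Serpinb1a, by 1.98 ± 0.37 on the log2 scale (adjusted p = 0.00157). For Serpinb6a the directions were opposite, 1.91 ± 0.25 in DC1 and −0.67 ± 0.24 in DC2 (adjusted p = 4.82e-06 and 0.0400), and differed by 2.58 ± 0.35 (adjusted p = 8.49e-05). The DC2 value of Serpinb6a was lost without any 1 of splenic CD4+ replicate 2 or 3, any LN CD11b+ replicate or monocyte replicate 1 (adjusted p 0.0510 to 0.144). It was also lost with limma on log2(TPM + 1) (adjusted p = 0.0533) and on log2(TPM + 0.1) (adjusted p = 0.0566). Fitting only those subtypes (adjusted p = 0.0927) or leaving out replicate 3 of both splenic DC subtypes (adjusted p = 0.121) lost it too. Its estimate stayed negative in all settings, at −0.88 to −0.55. For Serpinb8 the LN difference was −4.91 in DC1 and 1.51 in DC2, a gap of −6.41 ± 1.03 (adjusted p = 4.15e-04), and it was −8.34 without splenic CD4+ replicate 3, −7.88 without LN CD103+ replicate 1 and −5.76 without LN CD103+ replicate 2. These calls, 3 of 5, stood against 11.2% of all genes. The gap for Serpina3g was −0.64 ± 0.38 (adjusted p = 0.323). For Serpinb9 it was −1.42 ± 0.63 (adjusted p = 0.161). It passed without splenic CD4+ replicate 3 (−2.25, adjusted p = 0.0135), was −0.69 without splenic CD8+ replicate 3 (adjusted p = 0.511), and passed without replicate 3 of both splenic DC subtypes (−1.52, adjusted p = 0.0232). Serpinb9b had at most 1 count in the splenic DC libraries of each subtype, and its gap is not given.

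**Figure D3:**
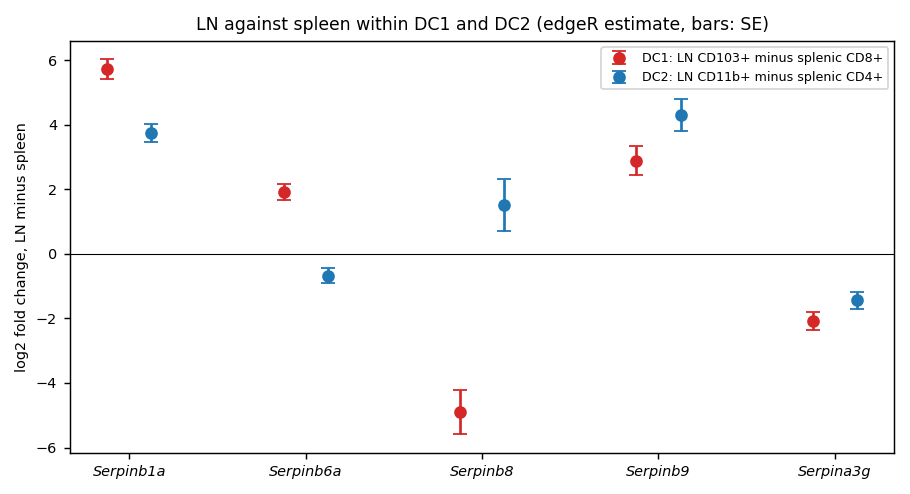
Estimated log2 fold change of LN over spleen (vertical axis) within DC1 (LN CD103+ minus splenic CD8+) and DC2 (LN CD11b+ minus splenic CD4+) for 5 tested serpin genes, with SE as bars. Serpinb6a and Serpinb8 lay on opposite sides of 0 in the 2 lineages, at 1.91 and −0.67 and at −4.91 and 1.51.

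Among the 60 other Serpin genes, 29 had no count in any library and 13 passed the filter of more than 1 CPM in at least 3 libraries. All 13 differed over the 5 subtypes, as did 73.5% of all genes tested, several of the 13 having passed that filter only through the subtype where they are high. Serpinf1, which encodes pigment epithelium-derived factor, was at 23.2 ± 7.65 CPM (SD, n = 3) in splenic CD8+ DCs and at most 0.677 CPM on average elsewhere. Serpini1, neuroserpin, was highest in splenic CD4+ DCs at 27.6 ± 2.59 CPM and lowest in monocytes at 1.09 ± 0.788 CPM. Serpinc1, antithrombin, was at 8.39 ± 1.07 CPM in the CD103+ and 3.83 ± 1.26 CPM in the CD11b+ DCs of the LN against at most 0.804 CPM on average in spleen. Serpinb1b, a paralog of Serpinb1a, was highest in LN CD103+ DCs too, at 4.46 ± 0.430 CPM. Serping1 (C1 inhibitor) and Serpinh1 (a collagen chaperone) averaged at most 2.21 CPM and were highest in LN DCs. Serpina3f, Serpina3h and Serpina3i, which lie in the same family as Serpina3g, were highest in splenic CD4+ DCs, at 10.2 ± 5.02, 5.46 ± 1.58 and 1.94 ± 1.12 CPM. Serpinb7 was highest there too, at 4.55 ± 1.32 CPM, and Serpind1 stayed at or below 1.71 CPM on average. Serpina3h shared 74 exonic bases on the same strand with Serpina3g, 4.57% of its own length and 3.52% of that of Serpina3g. The part of the shared bases in the counts of either gene was not tested.

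Among these other serpins 9 of 13 were called between LN and spleen in DC1 (5 higher and 4 lower in LN) and 8 in DC2 (4 higher and 4 lower). The background was 45.6% of all genes in DC1 and 33.1% in DC2. Some of the 13 passed the filter on low counts only through a group compared here. Among them were Serping1, Serpinc1 and Serpinh1 through LN DCs and Serpinf1 through splenic CD8+ DCs. Their calls were fixed in part by the filter, so the counts of this paragraph are a description only. Between splenic CD8+ and CD4+ DCs 3 of 13 were called against 27.4% of all genes, Serpinf1 higher and Serpini1 and Serpinb7 lower in CD8+ DCs. Between the LN subtypes edgeR called 0 of 13, with 2 at an unadjusted p under 0.05, and DESeq2 called 1, where 12.9% of all genes were called.

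**Figure D4:**
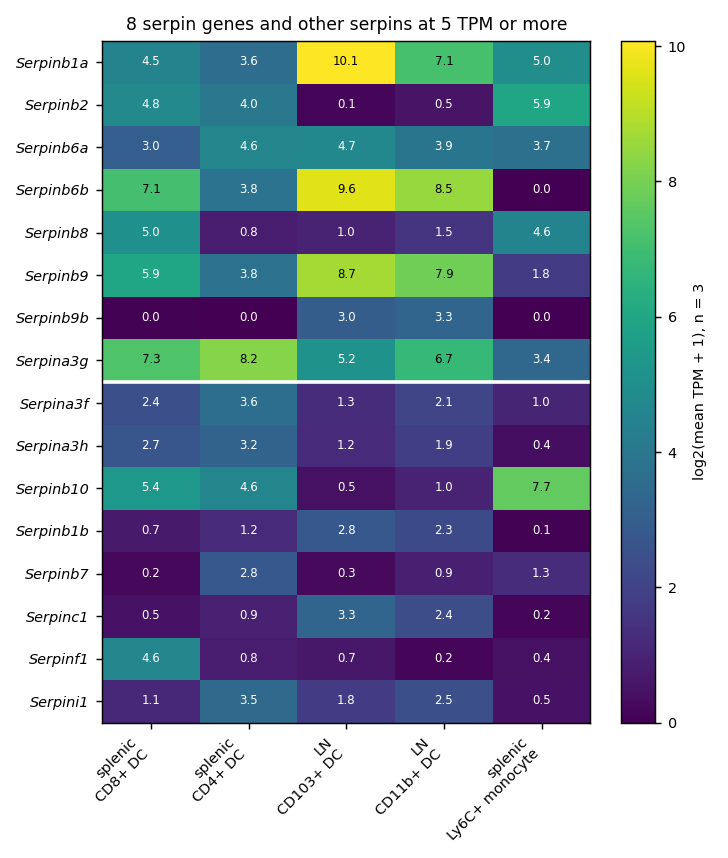
Heat map of log2(mean TPM + 1) over the 3 libraries of each subtype for the 8 serpin genes (above the white line) and the 8 other Serpin genes that reached a mean of 5 TPM in at least 1 subtype (below it), with the value in each cell. Serpinb10 is the brightest of these others, in monocytes, and Serpinf1 stands out in splenic CD8+ DCs.

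Along chromosome 13 the table held 16 Serpin genes, of which 6 passed the filter. Serpinb1a (ENSMUSG00000044734) lay at chr13:32842092-32851185 on the minus strand, its left end 123 kb before that of Serpinb6b. Serpinb6a (ENSMUSG00000060147) lay at chr13:33917918-34002794 on the minus strand, at the far end of the series. The genes between Serpinb1b and Serpinb6a had mean levels of at most 1.01 TPM in every subtype. Serpinb2 (ENSMUSG00000062345, chr1:107511423-107535478) and Serpinb8 (ENSMUSG00000026315, chr1:107590006-107608909) lay on chromosome 1, plus strand, and Serpina3g (ENSMUSG00000041481, chr12:104236245-104241939) on chromosome 12, plus strand. The paralogs were similar in parts only: no stretch of 100 bases of Serpinb1a, Serpinb6b, Serpinb8 or Serpinb9 occurred in a transcript of another gene, against 1.91% for Serpinb9b, 7.52% for Serpinb2 and 19.9% for Serpinb6a. At 30 bases the shares were 10.8%, 7.40%, 0.50% and 5.49% for Serpinb1a, Serpinb6b, Serpinb8 and Serpinb9. Alignments of reads that mapped to several places, of which a read can have more than 1, were 15.8% to 22.8% of all alignments of a library. The share was 20.6% to 22.8% in splenic DC libraries, 16.5% to 18.5% in LN DC libraries and 15.8% to 17.8% in monocyte libraries. It thus differed between LN and splenic DCs, and its part in the LN minus spleen differences was not tested.

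**Figure D5:**
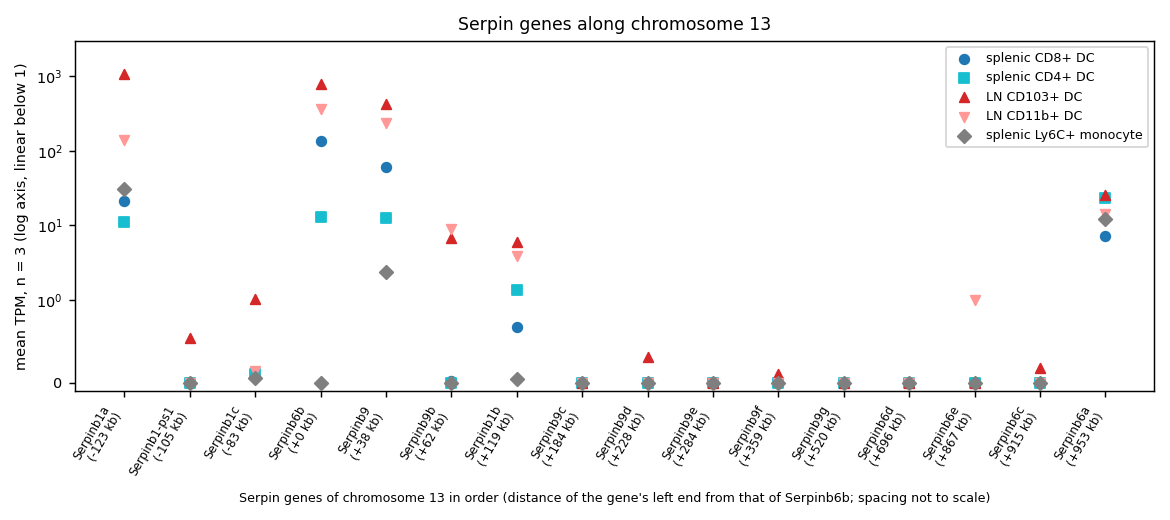
Mean TPM (n = 3, log axis that turns linear below 1) in each subtype for the 16 Serpin genes of chromosome 13, in chromosomal order. Labels give the distance in kb of the left end of each gene from that of Serpinb6b (spacing not to scale). Serpinb6b, Serpinb9 and Serpinb9b, at 0, 38 and 62 kb, and Serpinb1a before them were highest in LN DCs.

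The proteases and partners that these inhibitors are known for did not follow a single pattern. Of 26 listed genes 14 passed the filter and all 14 differed over the 5 subtypes, as did 73.5% of all genes tested. They were Prtn3, Prf1, Plau, Plat, Plaur, Furin, Casp1, Casp8, F2, F2r, Ctsb, Ctsl, Ctss and Ctsh. Prtn3 passed the filter only through monocytes, and Prf1, Plat, F2 and F2r only through LN DCs. For these a difference over the subtypes was fixed at least in part by the filter. The other 12 listed genes stayed at or below 3.68 CPM in every library. Granzyme B (Gzmb), the target of Serpinb9, was at most 0.279 CPM and granzyme A (Gzma) at most 1.89 CPM in any library. Of the neutrophil proteases inhibited by Serpinb1a, Elane and Prtn3 were seen mainly in monocytes, at 0.486 to 3.68 and 2.36 to 7.10 CPM, and Ctsg reached 0.197 CPM at most. Plat, tissue plasminogen activator, was at 50.4 to 55.7 CPM in CD103+ and 11.9 to 14.4 CPM in CD11b+ DCs of the LN and at most 0.540 CPM in any splenic library, and Serpinb2 was near its detection limit in those LN libraries. Plaur, the urokinase receptor, was at 392 to 433 CPM in monocytes against at most 21.8 CPM elsewhere. Furin was higher in monocytes, at 209 to 215 CPM, than in splenic CD8+ DCs, at 57.3 to 66.5 CPM (1.77 ± 0.25, adjusted p = 1.29e-05). Cathepsin B (Ctsb) was higher in monocytes than in each DC subtype, at 2498 to 2923 CPM against 604 to 1313 CPM. Of the 14 tested, 6 were called between LN and spleen in DC1, all higher in LN, and 6 in DC2, 5 higher. These shares, 42.9% in both, stood beside 45.6% of all genes in DC1 and 33.1% in DC2. Prf1, Plat, F2 and F2r, which passed the filter only through LN DCs, could hardly be called lower there. The direction of these counts was thus fixed in part by the filter. Mature neutrophil markers summed to 59.97 to 94.2 CPM in monocytes, with counts for 5 of 5, against at most 5.75 CPM elsewhere, and neutrophil granule genes to 6.998 to 15.4 CPM, with counts for 4 of 4. The mature neutrophil sum came mostly from Camp, at 16.1 to 35.5 CPM, and Ltf, at 42.5 to 58.3 CPM. In monocytes Ly6g was at most 0.393, Retnlg at most 0.389 and Cxcr2 at most 0.972 CPM, and Cxcr2 reached 4.64 CPM in LN CD11b+ DCs. The part of neutrophils, if any, in the monocyte levels of these proteases was not tested.

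The genes whose mean-centered log2 profile over the 15 libraries was closest to each member were found among all genes tested, by the root mean square difference. Its median over all genes was 1.04 for Serpinb6a, 1.91 for Serpina3g, 2.53 for Serpinb1a, 2.63 for Serpinb8 and 2.67 for Serpinb9b. It was 2.91 for Serpinb9, 3.03 for Serpinb2 and 4.17 for Serpinb6b, so values of different members are not on one scale. For Serpinb9 the closest genes were Apol10b (0.44), Gm13571 (0.71) and Apol7a (0.75), and for Serpinb6b Apol7c (0.78), Il12b (1.03) and Strip2 (1.05). Apol10b, Apol7a and Apol7c are apolipoprotein L genes and Il12b encodes the p40 chain of a cytokine that DCs make. Serpinb9b lay closest to Atcay (0.22) and Prdm8 (0.36), and Serpinb1a to Arhgap8 (0.60), Gm12216 (0.65) and Emp2 (0.68). Serpinb2 lay closest to Serpinb10 (0.91), with which it shares bases, and Serpinb8 to Naaa and Hk3 (both 1.13). Serpinb6a lay closest to Rgs3 (0.28), Uvrag (0.34) and Sp4 (0.34), and Serpina3g to Bhlhb9 (0.50), Prr11 (0.51) and Ptk2 (0.54). The values describe these 15 libraries and carry no test.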

How the data were processed

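RNA from 15 libraries, 3 for each of 5 sorted subtypes, was measured by poly(A) RNA-seq on an Ion Torrent sequencer. The authors aligned reads to mm10 with STAR 2.4.0j and counted the uniquely mapped ones on Ensembl genes with featureCounts (Subread 1.5.2), without strand, allowing a read to count for several overlapping genes, and the deposited counts are whole reads per gene. To obtain the deposited TPM values, the authors divided these counts by exon length and scaled each library to a common total. Reads mapping to several places were left out, so paralogs can lose signal. Monocyte libraries are the sum of their sequencing runs.

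Counts were tested with edgeR 4.0.16 (quasi-likelihood F test, TMM factors, R 4.3.3) in 1 fit over all 15 libraries and 14456 genes above 1 CPM in 3 or more libraries, which all 8 serpin genes passed. P-values were Benjamini-Hochberg adjusted over these genes with a threshold of 0.05, and SE is the absolute log2 fold change divided by the square root of F. The residual degrees of freedom were 10. The fit was tested on simulated counts first. CPM was computed as counts over the summed reads of the tested genes times the TMM factor (0.883 to 1.10). Floors are 3 counts over a group, and 95% counting intervals are exact and cover counting error only. The genes named are the 8 serpins, the other Serpin genes that passed the filter (1 of them is not reported here), listed proteases that passed it and the overall test, and the 3 genes nearest each serpin in profile. The 8 genes and these lists were chosen with earlier results of these data known. Promoter sequences came from RefSeq (GRCm38.p6) and were found for 7 of the 8 genes.

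Same-numbered libraries deviated from their group means together in every pair, with correlations above 0.1, between splenic CD8+ and CD4+ DCs (0.162 to 0.375), LN CD103+ and CD11b+ DCs (0.179 to 0.259) and splenic CD4+ DCs and either LN subtype (0.117 to 0.266). In the other pairs of subtypes this did not hold for every replicate number, and between splenic CD8+ and LN CD11b+ DCs the correlations were 0.016 to 0.182. Alternatives were DESeq2 1.42.0 (also its size factors in edgeR), no filter, filterByExpr, limma 3.58.1 on log2(TPM + 1) and log2(TPM + 0.1), the replicate number as a block, fits of only the subtypes compared and leaving out each library. The omission of replicate 3 of both splenic DC subtypes was added after seeing the data.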

Additional observations from a re-analysis of the deposited data

Results flagged for a closer look

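The LN minus spleen difference was larger in DC1 than in DC2 for Serpinb1a, by 1.98 on the log2 scale (edgeR adjusted p = 0.00157), and LN was higher in both lineages. For Serpinb6a the difference between lineages was 2.58 (adjusted p = 8.49e-05), with LN higher in DC1 and lower in DC2. The lower DC2 value was not called in several of the alternative settings, although its sign held. For Serpinb8 it was −6.41 (adjusted p = 4.15e-04), with LN lower in DC1 and a DC2 difference that did not pass the test. All 3 were picked out by a test of the difference itself.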

How the results depend on the processing

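Of the alternative values for single serpin genes, 2097 were unchanged, 25 were no longer called, 18 became called and 1 changed sign. Unchanged means the same direction and side of the threshold for tested genes, Serpinb9b among them. The 2097 also include values of Serpinb2 and Serpinb6b, which carry no test and so have no side of a threshold. Another 28 values of Serpinb2 and Serpinb6b moved by more than the spread between libraries. The sign change was Serpinb8 in LN CD103+ minus splenic CD4+ DCs, 0.67 and not called, which was −0.80 without LN CD103+ replicate 1 and ranged up to 2.60 without splenic CD4+ replicate 3. With only the splenic DC subtypes fitted, 2600 genes were called between CD8+ and CD4+ DCs against 3966 with all libraries. Of the 5 serpin genes tested in both fits, 3 were called against 5 with all libraries. The fit of only the splenic DC subtypes had fewer libraries and did not test Serpinb9b. Leaving out 1 library, the genes called between LN CD103+ and CD11b+ DCs ranged from 1216 (without LN CD103+ replicate 2) to 2171 (without splenic CD4+ replicate 2) against 1872. With the replicate block 2339 genes were called in that comparison and 4645 between splenic DC subtypes. Besides Serpinb9 between the LN subtypes, the block added calls for Serpinb9 in the LN effect compared between lineages (−1.34, adjusted p = 0.0112) and for Serpina3g in LN CD11b+ minus splenic CD8+ DCs (adjusted p = 0.0467), and it changed no other call. Same-numbered libraries of LN CD11b+ and splenic CD8+ DCs correlated at 0.016, 0.182 and 0.118 for replicates 1, 2 and 3. Without the filter Serpinb9 was called between the LN subtypes (adjusted p = 7.71e-04), Serpinb9 in the LN effect between lineages (6.17e-04), Serpinb8 in DC2 (0.0101) and Serpina3g in LN CD11b+ minus splenic CD8+ DCs (0.0464). The causes were not tested. Low counts limit Serpinb9b in spleen, Serpinb2 in LN and Serpinb8 outside splenic CD8+ DCs and monocytes.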
